A study of Homo sapiens with 6 samples.

Results

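Autophagy is the route by which a cell encloses part of its cytoplasm in a double membrane, the autophagosome, and delivers it to the lysosome for digestion. A kinase complex around ULK1 starts the process, a lipid kinase complex marks the membrane, 2 ubiquitin-like conjugation steps attach ATG8-family proteins to it, and receptors bind cargo to those proteins. The lysosome contributes acid hydrolases, membrane proteins and a nutrient-sensing platform, and many of its genes can be switched on by the transcription factors TFEB, TFE3 and MITF. The 53 genes described here were chosen by symbol from a list of autophagy and lysosome genes, out of 46427 genes in the deposited table. That choice was made with earlier results of these data known. Of these, 31 act in autophagosome formation or cargo selection and 22 in the lysosome or its control.

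The cells were MDA-MB-231/RR, a line made resistant to radiation from MDA-MB-231, human breast cancer cells of the triple-negative type. RNA was sequenced from 3 samples co-treated with ortho-topolin riboside (oTR), a cytokinin riboside of plants, and melatonin, and from 3 control samples of the same line. The study's stated hypothesis was that both compounds together would be more toxic to these cells than either alone, with changes in metabolites and transcripts. None of the 6 samples had a single compound, so effects of oTR, of melatonin and of both together cannot be told apart. Doses, exposure times and the vehicle are not stated in the sources used here, and neither is whether the samples of a group were separate cultures. The p-values therefore reflect sample-to-sample spread that may be technical.

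Estimated counts summed to between 50569611 and 72204161 in the co-treated libraries and between 56521572 and 72309015 in the control libraries. The cells had the markers of the line: VIM stood at 2200.0 to 2250.0 CPM (counts scaled to the normalized library total) in co-treated libraries and 1960.0 to 2150.0 CPM in control libraries. EGFR was also wholly higher, at 880.0 to 954 CPM in co-treated and 739 to 771 CPM in control libraries. KRT18 was wholly lower, at 316 to 336 CPM in co-treated and 349 to 388 CPM in control libraries, as was CD44, at 503 to 524 CPM in co-treated and 534 to 553 CPM in control libraries. KRT8 overlapped between groups. The luminal genes ESR1, PGR and CDH1 were at or near 0 in all 6 libraries. Of other cell types' genes, PTPRC, DCN and LUM were at or near 0 throughout. The summed level of 4 macrophage genes was 22.2 to 28.7 CPM in co-treated and 25.7 to 27.9 CPM in control libraries, nearly all of it CD68, which encodes a lysosomal glycoprotein. Luminal breast genes summed to 3.91 to 4.29 CPM in co-treated and 5.79 to 6.25 CPM in control libraries, nearly all of it GATA3. Fibroblast genes summed to 16.4 to 18.5 CPM in co-treated and 20.0 to 23.7 CPM in control libraries, nearly all of it COL1A1. Their part in the results was not tested. In bulk RNA, fewer expressing cells and less RNA per cell cannot be told apart.

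Co-treated cells had more mRNA for a subset of these genes and less for a few. Of 52 members tested, 15 were higher in co-treated cells, 3 were lower and 34 did not pass (edgeR quasi-likelihood test, Benjamini-Hochberg adjustment over 16557 genes, threshold 0.05). That is 28.8% higher and 5.77% lower, against 16.6% higher and 17.1% lower among all genes tested. The median log2 fold change of the members was 0.09, against 0.00 for all genes, and the members ran from -0.29 to 0.84. The split depended on the scaling, since with library size alone 26 members were higher and 1 lower, and on the scale log2(TPM + 1) 30 were higher and 1 lower. Those scales move all genes, whose median moved to 0.06 by library size and to 0.09 in TPM, and 3816 against 2065 and 4516 against 1339 genes were then higher and lower.

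**Figure D1:**
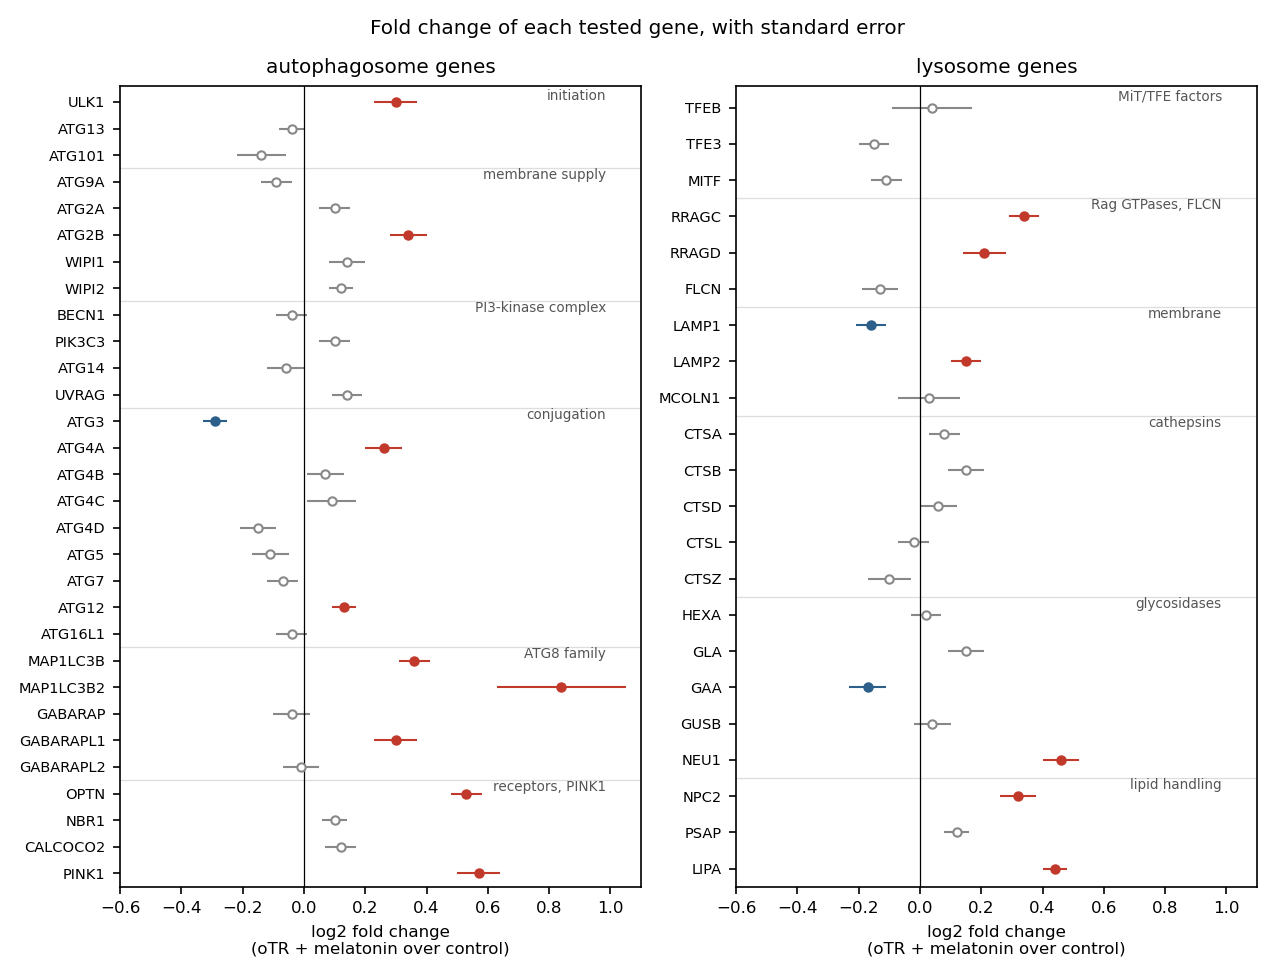
Log2 fold change of oTR plus melatonin over control (x axis) for the 30 autophagosome genes (left) and 22 lysosome genes (right) tested, grouped by role, with bars for the standard error of the fit. Filled red points were called higher, filled blue points lower and open grey points were not called; the largest value is MAP1LC3B2 at 0.84 and the lowest ATG3 at -0.29.

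Among the autophagosome genes, 9 of 30 tested were higher and 1 was lower, with a median log2 fold change of 0.10. The lysosome genes had 6 of 22 higher and 2 lower, with a median of 0.05. Neither class is shown to have moved more: leaving out single libraries gave lysosome medians of 0.01 to 0.12 and autophagosome medians of 0.08 to 0.11, and with the length trend removed they were 0.09 and 0.07. Co-treated values lay wholly above control values for 24 of the 52 members (46.2%, against 23.3% of all genes tested) and wholly below for 7 (13.5%, against 24.1%). Summed over the group, autophagosome transcripts stood at 1361 ± 13.4 TPM (a level scaled to transcript length and library total) in co-treated cells and 1199 ± 6.53 TPM in control cells. Lysosome transcripts stood at 2234 ± 69.0 TPM in co-treated and 1929 ± 24.0 TPM in control cells (SD, n = 3 each). No test was run on these sums, and PSAP alone held 682 TPM of the lysosome sum in co-treated cells. On log2(TPM + 1) the median log2 fold change of all genes was itself 0.09, against 0.24 for autophagosome and 0.18 for lysosome genes.

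**Figure D2:**
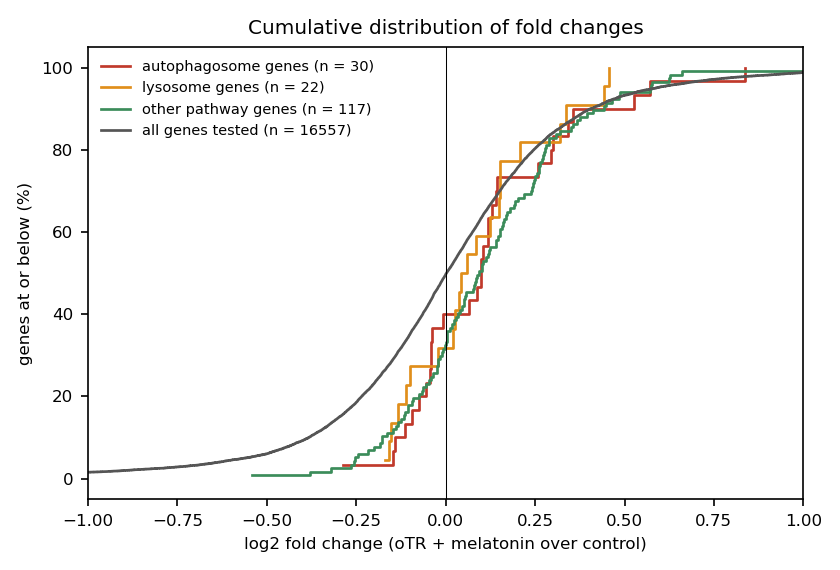
Cumulative share of genes (y axis, percent) by log2 fold change of oTR plus melatonin over control (x axis) for the autophagosome, lysosome and other pathway genes and for all genes tested. The curves of the pathway genes lie to the right of all genes around 0, with medians of 0.10, 0.05 and 0.09 against 0.00; values beyond 1 in either direction are off the axis.

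Initiation of autophagy depends on the ULK kinases with ATG13 and ATG101. ULK1 (gene ID 8408, chromosome 12, 131894622 to 131923150 on GRCh38) had 17.1, 16.4 and 16.3 CPM in co-treated libraries, against 14.5, 12.4 and 13.8 CPM in control libraries. The groups did not overlap. The log2 fold change was 0.30 ± 0.07 (SE; adjusted p = 0.00928, edgeR). ULK2, the paralogous kinase, was listed at 0 in all 6 libraries, where 3 counts would have been 0.0408 to 0.0580 CPM. It did not pass the count filter and was not tested. ATG13 and ATG101, which are subunits of the same complex, had log2 fold changes of -0.04 and -0.14, and neither passed.

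The growing membrane is fed by ATG9A, a scramblase carried in vesicles, and by the lipid-transfer proteins ATG2A and ATG2B, which WIPI1 and WIPI2 help to recruit. ATG2B (gene ID 55102, chromosome 14, 96279195 to 96363341) had 61.8, 57.6 and 56.6 CPM in co-treated libraries and 46.5, 48.9 and 43.6 CPM in control libraries. All 3 co-treated values were above all control values, with a log2 fold change of 0.34 ± 0.06 (SE; adjusted p = 0.00114, edgeR). With the length trend removed the value was 0.20 (adjusted p = 0.00627, edgeR). In GENCODE annotation, 2.84% of its exonic bases overlap exons of GSKIP on the opposite strand. GSKIP was also higher (log2 fold change 0.45 ± 0.06, SE; adjusted p = 0.000284, edgeR), and without strand information the reads of such an overlap cannot be told apart. ATG2A, WIPI1 and WIPI2 had co-treated values wholly above control values but did not pass, with log2 fold changes of 0.10, 0.14 and 0.12. ATG9A stood at -0.09.

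None of the 4 genes of the lipid kinase complex passed. PIK3C3 is its catalytic subunit, BECN1 a scaffold, and ATG14 and UVRAG are alternative partners that direct it to autophagosome formation or to endosomes. Their log2 fold changes were 0.10 for PIK3C3, -0.04 for BECN1, -0.06 for ATG14 and 0.14 for UVRAG. The nearest to the threshold was UVRAG, which had 27.0, 27.5 and 28.0 CPM in co-treated libraries against 25.2, 25.3 and 24.2 CPM in control libraries (adjusted p = 0.0608, edgeR). BECN1 ranged from 100.5 to 105 CPM in co-treated and from 101 to 109 CPM in control libraries, and these ranges overlapped.

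In the conjugation machinery, genes of single steps moved in opposite directions. ATG3, the E2-like enzyme that joins ATG8 proteins to lipid, was lower. It had 73.0, 68.8 and 71.1 CPM in co-treated libraries, against 86.0, 86.5 and 87.3 CPM in control libraries, with a log2 fold change of -0.29 ± 0.04 (SE; adjusted p = 0.000637, edgeR). ATG3 (gene ID 64422, chromosome 3, 112532510 to 112561962) was the only autophagosome gene called lower, also under every alternative run. SLC35A5, whose exons cover 2.47% of the exonic bases of ATG3 on the opposite strand, was higher (log2 fold change 0.38 ± 0.06, SE; adjusted p = 0.00124, edgeR). ATG4A, a protease that primes ATG8 proteins and frees them from lipid, had 19.8, 17.8 and 18.8 CPM in co-treated libraries and 15.4, 16.3 and 15.4 CPM in control libraries. The groups stood apart, with a log2 fold change of 0.26 ± 0.06 (SE; adjusted p = 0.0107, edgeR).

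ATG12, the ubiquitin-like partner of ATG5, had 48.5, 49.3 and 49.0 CPM in co-treated libraries and 45.0, 45.0 and 44.2 CPM in control libraries. The values of each group lay close together and did not overlap, at a log2 fold change of 0.13 ± 0.04 (SE; adjusted p = 0.0433, edgeR). That call was lost when any of the 6 libraries was left out, with adjusted p = 0.0615 to 0.123, edgeR at log2 fold changes of 0.12 to 0.13. It was also lost with the length trend removed (0.09, adjusted p = 0.141, edgeR). The other ATG4 proteases, ATG5, the E1-like enzyme ATG7 and ATG16L1, which positions the conjugation on the membrane, did not pass. Their log2 fold changes ran from -0.15 for ATG4D to 0.09 for ATG4C.

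The ATG8 family divided between 3 genes that were higher and 2 that did not pass. These small proteins are attached to the autophagosome membrane, where they recruit cargo receptors and help the vesicle to close and fuse. MAP1LC3B (gene ID 81631, chromosome 16, 87392336 to 87404774), which encodes the common autophagosome marker LC3B, had 125, 111 and 120.4 CPM in co-treated libraries, against 93.5, 90.8 and 94.1 CPM in control libraries. Every co-treated value was above every control value, with a log2 fold change of 0.36 ± 0.05 (SE; adjusted p = 0.000404, edgeR). GABARAPL1 had 14.0, 13.2 and 12.7 CPM in co-treated and 10.9, 10.8 and 10.7 CPM in control libraries, a log2 fold change of 0.30 ± 0.07 (SE; adjusted p = 0.00634, edgeR). Exons of AC115676.1 on the opposite strand cover 8.05% of the exonic bases of GABARAPL1 in GENCODE annotation.

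MAP1LC3B2 encodes a near-identical copy of LC3B, so reads can be shared between the pair. It had 1.23, 1.32 and 1.28 CPM in co-treated libraries and 0.847, 0.729 and 0.573 CPM in control libraries, with a log2 fold change of 0.84 ± 0.21 (SE; adjusted p = 0.00935, edgeR). At this level the value rests on few counts and is uncertain. With the counts of both copies summed, MAP1LC3B was higher by 0.36 ± 0.05 (SE; adjusted p = 0.000365, edgeR). GABARAP ranged from 67.1 to 74.3 CPM in co-treated and from 66.2 to 77.0 CPM in control libraries, and GABARAPL2 from 32.5 to 37.3 CPM in co-treated and from 33.5 to 36.9 CPM in control libraries. Both overlapped between groups, with log2 fold changes of -0.04 ± 0.06 and -0.01 ± 0.06 (SE). These signs are not settled, since both were above 0 on the TPM scale, by library size alone and after removal of the length trend.

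Per transcript length, MAP1LC3B and GABARAP were the highest of the family in both groups. MAP1LC3B stood at 128 ± 8.45 TPM and GABARAP at 124 ± 4.13 TPM in co-treated cells, a difference within their spread, with MAP1LC3B above GABARAP in 1 of 3 libraries. In control cells MAP1LC3B stood at 91.5 ± 1.53 TPM, below GABARAP at 117 ± 8.78 TPM. GABARAPL2, whose TPM did not overlap between groups although its CPM did, followed at 83.4 ± 4.27 TPM in co-treated and 76.5 ± 2.54 TPM in control cells. GABARAPL1 was lower still, at 16.7 ± 1.18 TPM in co-treated and 12.2 ± 0.319 TPM in control cells, and MAP1LC3B2 was lowest at 3.59 ± 0.0823 TPM in co-treated and 1.84 ± 0.390 TPM in control cells (SD, n = 3 each).

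**Figure D3:**
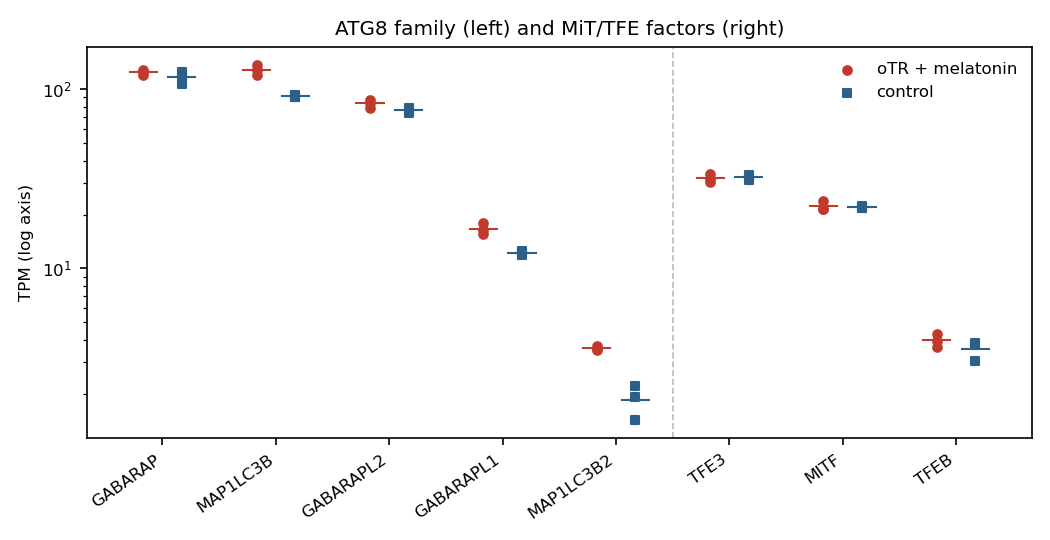
TPM (y axis, log scale) of the ATG8 family and of the MiT/TFE transcription factors in the 3 libraries of each group, oTR plus melatonin (red circles) left of control (blue squares), with short lines at the group means. MAP1LC3B, GABARAPL1, GABARAPL2 and MAP1LC3B2 have co-treated values above all control values, while GABARAP, TFE3, MITF and TFEB overlap between groups.

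After MAP1LC3B2, the largest log2 fold changes among autophagosome genes were those of PINK1 and OPTN. PINK1, a kinase that accumulates on damaged mitochondria and marks them for removal, had 76.2, 87.2 and 83.8 CPM in co-treated libraries, against 50.7, 55.8 and 59.8 CPM in control libraries. The lowest co-treated value exceeded the highest control value, and the log2 fold change was 0.57 ± 0.07 (SE; adjusted p = 0.000165, edgeR). PINK1 (gene ID 65018, chromosome 1, 20633458 to 20651511) shares 39.4% of its exonic bases with PINK1-AS, a transcript of the opposite strand. PINK1-AS averaged 19.0 CPM in co-treated and 20.5 CPM in control cells and did not pass (log2 fold change -0.11 ± 0.08, SE; adjusted p = 0.314, edgeR).

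OPTN encodes optineurin, a receptor that links ubiquitin-marked mitochondria and bacteria to ATG8 proteins. OPTN (gene ID 10133, chromosome 10, 13100082 to 13138308) had 57.8, 57.3 and 52.9 CPM in co-treated libraries and 40.4, 38.0 and 38.3 CPM in control libraries. The groups stood well apart, with a log2 fold change of 0.53 ± 0.05 (SE; adjusted p = 6.66e-05, edgeR). The other receptors moved less. NBR1, a receptor for ubiquitin-marked proteins, had 234, 224 and 232 CPM in co-treated libraries and 211, 219 and 214 CPM in control libraries, and did not pass (log2 fold change 0.10 ± 0.04, SE; adjusted p = 0.0953, edgeR). CALCOCO2, which encodes the receptor NDP52, had 108, 98.8 and 106 CPM in co-treated and 98.7, 91.6 and 97.6 CPM in control libraries (log2 fold change 0.12 ± 0.05, SE; adjusted p = 0.0934, edgeR).

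**Figure D4:**
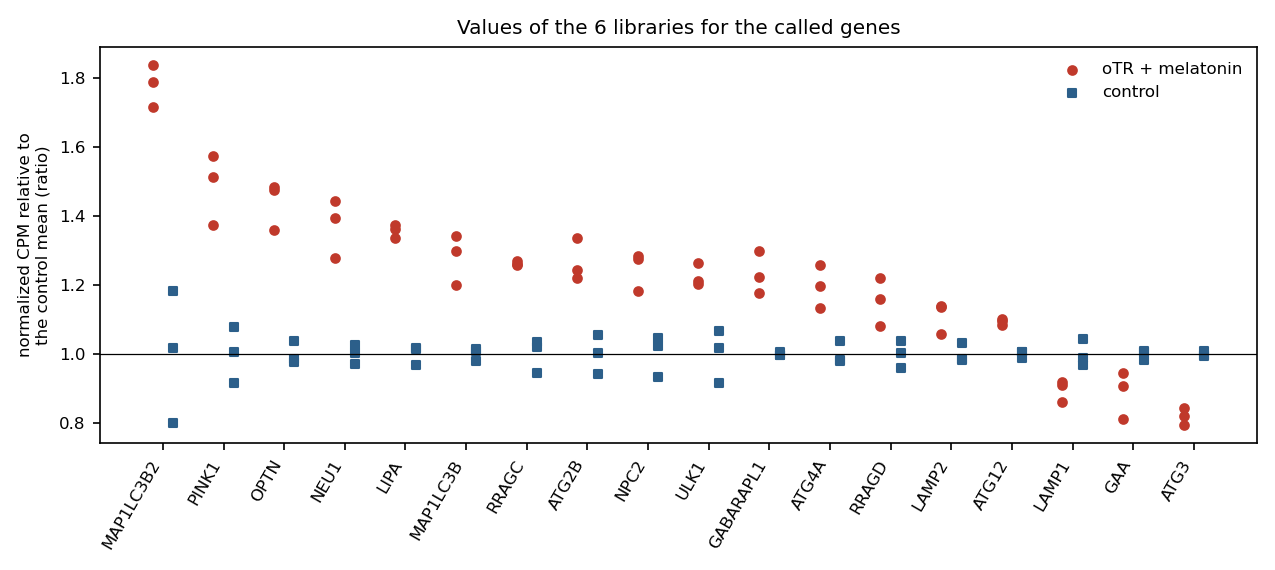
Normalized CPM of each library divided by the control mean (y axis, a ratio) for the 18 called members, ordered by fold change, with oTR plus melatonin (red circles) left of control (blue squares). In each of the 18 genes the 3 co-treated values lie wholly on one side of the 3 control values.

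On the lysosomal side, the transcription factors themselves did not pass. TFEB, which drives lysosome genes when it enters the nucleus, had 3.62, 4.37 and 4.02 CPM in co-treated libraries and 3.31, 4.11 and 4.24 CPM in control libraries. The groups overlapped, with a log2 fold change of 0.04 ± 0.13 (SE; adjusted p = 0.845, edgeR). TFE3, its paralogue, had 43.2, 47.4 and 43.4 CPM in co-treated and 47.4, 50.5 and 51.1 CPM in control libraries. Its log2 fold change of -0.15 ± 0.05 (SE) lay at the threshold (adjusted p = 0.0503, edgeR; DESeq2 adjusted p = 0.0444). Per transcript length TFE3 stood at 31.8 ± 1.70 TPM in co-treated and 32.2 ± 1.03 TPM in control cells (SD, n = 3 each).

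MITF had 47.6, 44.2 and 44.7 CPM in co-treated libraries and 49.1, 48.0 and 50.2 CPM in control libraries. The values of the groups did not overlap, but the log2 fold change of -0.11 ± 0.05 (SE) did not pass (adjusted p = 0.111, edgeR), and on the TPM scale it was 0.02. With the length trend removed MITF was called lower (-0.17, adjusted p = 0.0151, edgeR). Of the 3 factors, TFE3 and MITF were therefore the more abundant mRNAs, at 31.8 and 22.3 TPM in co-treated cells against 3.96 TPM for TFEB.

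The Rag GTPases sit on the lysosome surface and report amino acids to the kinase complex mTORC1 and to TFEB. RRAGC (gene ID 64121, chromosome 1, 38838198 to 38859772) had 37.3, 37.0 and 37.0 CPM in co-treated libraries and 29.9, 30.4 and 27.7 CPM in control libraries. The co-treated values were nearly equal and all above the control values, with a log2 fold change of 0.34 ± 0.05 (SE; adjusted p = 0.000957, edgeR). In GENCODE annotation, 22.9% of the exonic bases of RRAGC overlap exons of AL139260.2 on the same strand, whose level is not known here. RRAGD, which can take the place of RRAGC, had 14.3, 13.4 and 15.1 CPM in co-treated and 12.8, 11.9 and 12.4 CPM in control libraries, a log2 fold change of 0.21 ± 0.07 (SE; adjusted p = 0.0436, edgeR). That call was lost without co-treated replicate 1 (adjusted p = 0.0856, edgeR) or 3 (0.151), or without control replicate 1 (0.0693), 2 (0.126) or 3 (0.101). FLCN, the activating partner of these GTPases, stood at -0.13 ± 0.06 (SE; adjusted p = 0.106, edgeR).

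The major membrane glycoproteins LAMP1 and LAMP2 moved in opposite directions by small amounts. LAMP1 (gene ID 3916, chromosome 13, 113297239 to 113323672) had 117, 124 and 125 CPM in co-treated libraries and 134, 131 and 142 CPM in control libraries, a log2 fold change of -0.16 ± 0.05 (SE; adjusted p = 0.0239, edgeR). LAMP2 (gene ID 3920, chromosome X, 120426148 to 120469349) had 156, 145 and 156 CPM in co-treated and 135, 142 and 135 CPM in control libraries, a log2 fold change of 0.15 ± 0.05 (SE; adjusted p = 0.0267, edgeR). In both genes the groups did not overlap, and neither call held under all alternatives. LAMP1 was not called without co-treated replicate 1 (adjusted p = 0.0670, edgeR) or 2 (0.0527), or without control replicate 1 (0.0562) or 3 (0.0881), and on the TPM scale its log2 fold change was -0.03. LAMP2 was not called without co-treated replicate 1 (adjusted p = 0.0654, edgeR) or 3 (0.101), without control replicate 1 (0.102) or 3 (0.0811), or with the length trend removed (0.140). MCOLN1, a calcium channel of the lysosome membrane, ranged from 10.4 to 13.1 CPM in co-treated and from 10.9 to 12.9 CPM in control libraries.

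LAMP2 transcripts differ in their last exon and give proteins with distinct roles, of which the A form is the receptor of chaperone-mediated autophagy. Variant A made up 33.8%, 36.3% and 34.7% of LAMP2 TPM in co-treated libraries, against 28.5%, 28.0% and 29.4% in control libraries. Variant B made up 65.9%, 63.7% and 65.0% in co-treated and 70.5%, 72.0% and 70.4% in control libraries. The shares did not overlap between groups, but the test of transcript usage did not pass (limma diffSplice adjusted p = 0.404, unadjusted p = 0.0631). Of 40 members with several tested transcripts, 0 were called for changed usage, against 1.9% of 9961 genes, and 7 (17.5%) had an unadjusted p under 0.05, against 13.5% of all genes (limma diffSplice). Without control replicate 2 PSAP was called (limma diffSplice adjusted p = 0.0417), and without control replicate 3 TFE3 was (limma diffSplice adjusted p = 0.00343). TFE3 variant 1 made up 36.0%, 41.3% and 39.4% of the gene in co-treated libraries and 70.6%, 70.8% and 32.1% in control libraries, so that control replicate 3 lay with the co-treated libraries.

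**Figure D5:**
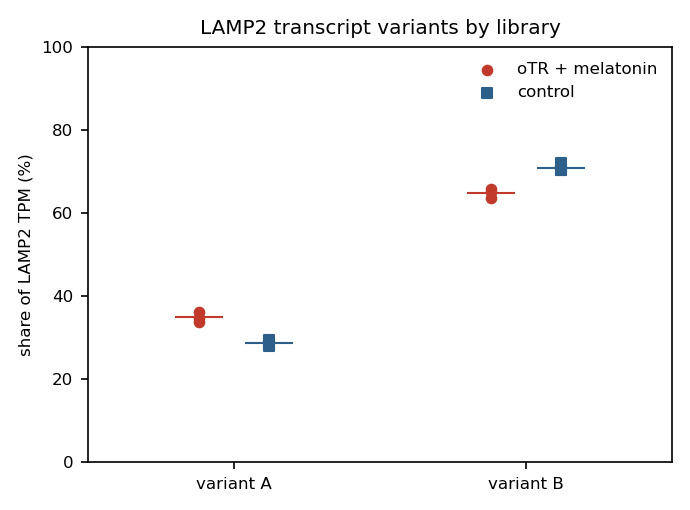
Share of LAMP2 TPM (y axis, percent) held by transcript variants A and B in each library, oTR plus melatonin (red circles) left of control (blue squares), with short lines at the means. Variant A lies between 33.8% and 36.3% in co-treated libraries and between 28.0% and 29.4% in control libraries.

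The cathepsins, the main proteases of the lysosome, did not pass in any of 5 genes. CTSD, an aspartic protease, had 233, 275 and 262 CPM in co-treated libraries and 238, 242 and 259 CPM in control libraries, with a log2 fold change of 0.06 ± 0.06 (SE; adjusted p = 0.494, edgeR). The other 4 had log2 fold changes of 0.15 for CTSB, 0.08 for CTSA, -0.02 for CTSL and -0.10 for CTSZ, and all 5 overlapped between groups. CTSB was called without co-treated replicate 1, at a log2 fold change of 0.21 (adjusted p = 0.00785, edgeR). On the TPM scale, where CTSL and CTSZ lay above 0, CTSA, CTSB and CTSD were called higher with the filter on low values, and CTSA and CTSB without it.

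Among the glycosidases, NEU1 was higher and GAA lower. NEU1 (gene ID 4758, chromosome 6, 31857659 to 31862821), the lysosomal sialidase, had 27.1, 29.6 and 30.6 CPM in co-treated libraries, against 21.3, 20.6 and 21.8 CPM in control libraries. The groups stood apart, with a log2 fold change of 0.46 ± 0.06 (SE; adjusted p = 0.000379, edgeR). CTSA, which encodes the protective partner of NEU1 in their shared complex, was not called (95.9, 103 and 101 CPM in co-treated, and 91.1, 95.7 and 96.1 CPM in control libraries). GAA, which breaks down glycogen, had 59.7, 66.6 and 69.5 CPM in co-treated and 72.3, 74.2 and 74.0 CPM in control libraries. Its log2 fold change was -0.17 ± 0.06 (SE; adjusted p = 0.0392, edgeR), with co-treated replicate 1 lowest. That call was lost when any library but co-treated replicate 3 was left out (adjusted p = 0.0721 to 0.108, edgeR), and on the TPM scale the value was -0.04. GLA, HEXA and GUSB, which remove sugars from glycolipids and other glycoconjugates, had log2 fold changes of 0.15, 0.02 and 0.04 and did not pass.

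In lipid handling, co-treated values lay above all control values in 3 of 3 genes, as they did in the 4 receptor and mitophagy genes and in 23.3% of all genes tested. LIPA (gene ID 3988, chromosome 10, 89213569 to 89252039), the acid lipase that frees cholesterol and fatty acids from lipoprotein lipids, had 116, 113 and 115 CPM in co-treated libraries and 81.5, 85.6 and 85.8 CPM in control libraries. The log2 fold change was 0.44 ± 0.04 (SE; adjusted p = 5.39e-05, edgeR). NPC2, which carries free cholesterol inside the lysosome, had 66.0, 71.7 and 71.2 CPM in co-treated and 57.0, 52.0 and 58.3 CPM in control libraries, a log2 fold change of 0.32 ± 0.06 (SE; adjusted p = 0.00158, edgeR). PSAP, the precursor of the saposins that help enzymes reach sphingolipids, was the most abundant member, at 682 ± 15.2 TPM in co-treated and 571 ± 7.78 TPM in control cells (SD, n = 3 each). It had 778, 829.5 and 820.4 CPM in co-treated libraries and 726, 731 and 772 CPM in control libraries, and its log2 fold change of 0.12 ± 0.04 (SE) lay at the threshold (adjusted p = 0.0504, edgeR; DESeq2 adjusted p = 0.0280).

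Within groups, the lysosome genes had a marked order of libraries. Co-treated replicate 1 was the lowest of its group in 16 of 22 lysosome genes (72.7%), against 13 of 30 autophagosome genes (43.3%) and 37.9% of all genes tested. Control replicate 3 was the highest of its group in 18 of 22 lysosome genes (81.8%), against 12 of 30 autophagosome genes (40.0%) and 37.0% of all genes tested. Single pathway genes outside the members went both ways: both features held in LAMTOR1, LAMTOR4 and SQSTM1, and the reverse held in MANBA. Such examples do not show whether the order was particular to these 22 genes, and it was not counted over the further pathway genes. The part of these libraries in the lysosome results is given by the values without them: without co-treated replicate 1 the lysosome genes had 6 higher and 0 lower with a median log2 fold change of 0.12, and without control replicate 3 they had 5 higher and 0 lower with a median of 0.10.

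TFEB and its relatives bind a palindrome known as the CLEAR element, built on the letters CACGTG, and the promoters of members were searched for it on both strands because it is the shared sequence feature of lysosome genes. RefSeq promoter windows (250 bases before to 50 after the start, GRCh38.p14) matched 45 of 53 members, and only the first window listed for a gene was searched. The 8 members without a window were not searched: UVRAG, ATG4D, CTSB, HEXA and PSAP, and PINK1, RRAGD and LAMP2, which were called higher. The letters TCACGTGA, which contain CACGTG, were in 5 of 45 members' windows (11.1%), in 1.87% of the 11590 windows of tested genes and in 1.04% of all 27305 windows. Those 5 were GAA, LAMP1, MCOLN1, CTSA and ATG3. In the main test none of the 5 was called higher, and GAA, LAMP1 and ATG3 were called lower. The calls of GAA and LAMP1 held under 7 and 9 of 17 alternatives. CTSA was called higher by library size alone, on the TPM scales and with the length trend removed (log2 fold change 0.14, adjusted p = 0.0214, edgeR). Among all 217 tested genes with these letters in the window, 17.5% were higher and 21.2% lower, against 18.5% and 18.9% of the 11590 tested genes with a window. These letters with a G before and a C after them were in the windows of GAA and MCOLN1 (4.44% of members, 0.777% of tested genes' windows, 0.381% of all windows). Of the members called higher, NEU1 and RRAGC held the shorter CACGTG, which was in 9 of 45 members (20.0%), 10.0% of tested genes' windows and 7.43% of all windows. The promoters of CTSA and ATG3 are not printed. The following sequences, from RefSeq, are promoters of members not called higher (GAA, LAMP1 and MCOLN1) and of 2 called higher (NEU1 and RRAGC). Each runs 5′ to 3′ toward the gene's start on the gene's strand, in lower case, with TCACGTGA and CACGTG in capitals. They lie at chr17:80101331-80101534 on the plus strand for GAA, chr13:113296989-113297238 on the plus strand for LAMP1, chr19:7522374-7522623 on the plus strand for MCOLN1, chr6:31862822-31863071 on the minus strand for NEU1 and chr1:38859773-38860022 on the minus strand for RRAGC.
GAA: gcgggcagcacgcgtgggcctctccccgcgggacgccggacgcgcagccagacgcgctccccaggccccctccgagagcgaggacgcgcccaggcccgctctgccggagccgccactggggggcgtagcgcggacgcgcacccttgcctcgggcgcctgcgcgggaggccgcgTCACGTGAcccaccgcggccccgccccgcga
LAMP1: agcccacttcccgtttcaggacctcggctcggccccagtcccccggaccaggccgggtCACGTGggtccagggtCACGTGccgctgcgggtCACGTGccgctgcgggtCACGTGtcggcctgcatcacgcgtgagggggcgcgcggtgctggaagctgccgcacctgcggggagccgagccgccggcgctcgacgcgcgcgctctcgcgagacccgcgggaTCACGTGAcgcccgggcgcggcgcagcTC
MCOLN1: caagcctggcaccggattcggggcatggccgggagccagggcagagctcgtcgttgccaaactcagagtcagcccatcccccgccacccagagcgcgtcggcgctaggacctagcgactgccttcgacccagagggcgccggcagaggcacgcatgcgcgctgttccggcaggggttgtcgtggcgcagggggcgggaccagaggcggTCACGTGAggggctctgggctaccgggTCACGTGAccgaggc
NEU1: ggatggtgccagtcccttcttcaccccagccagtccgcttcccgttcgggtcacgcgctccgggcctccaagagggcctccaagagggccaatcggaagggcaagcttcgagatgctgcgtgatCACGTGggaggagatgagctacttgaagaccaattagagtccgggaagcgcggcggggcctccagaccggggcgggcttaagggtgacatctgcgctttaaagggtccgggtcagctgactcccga
RRAGC: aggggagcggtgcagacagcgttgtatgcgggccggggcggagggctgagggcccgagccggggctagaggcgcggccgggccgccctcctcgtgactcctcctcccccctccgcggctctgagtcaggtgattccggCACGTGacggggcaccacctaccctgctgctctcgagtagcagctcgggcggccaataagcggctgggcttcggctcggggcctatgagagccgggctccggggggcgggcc
In GAA the letters TCACGTGA began at positions -77 and -32 from the start, and the second match lies beyond the stretch printed. LAMP1 held CACGTG at 6 places, 2 of them within TCACGTGA, the last of which begins in the final 2 bases printed and runs across the start. A match says only that the letters are present, and binding was not measured. FOXO factors recognise the letters GTAAACA, which were in the windows of CALCOCO2 and CTSL (4.44% of members, against 2.38% of tested genes' windows and 3.41% of all windows), neither of which was called.

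Of 121 further genes of the pathway, listed by role from general knowledge, 117 were tested. This list too was drawn up with earlier results of these data known, so its shares are not independent support. Of these, 42 were higher (35.9%) and 10 lower (8.55%), with a median log2 fold change of 0.09, against 16.6% higher and 17.1% lower among all genes tested. Soluble lysosomal enzymes outside the members had 17 of 34 higher and 1 lower. Other genes listed under the lysosome membrane had 4 of 18 higher (22.2%) and 2 lower (11.1%), with a median of 0.03. Those listed under nutrient sensing had 4 of 12 higher and 3 lower, with a median of 0.11. Further autophagosome genes had 13 of 36 higher (36.1%) and 4 lower. The subunits of the proton pump that acidifies the lysosome had 4 of 17 higher (23.5%, near the share of all genes) and 0 lower, with a median of 0.00. The 3 largest rises were in hydrolase genes. MANBA, a mannosidase, had 11.6, 10.8 and 10.3 CPM in co-treated and 6.90, 7.07 and 6.65 CPM in control libraries (log2 fold change 0.66 ± 0.08, SE; adjusted p = 0.000169, edgeR). SMPD1, the acid sphingomyelinase, had 28.2, 31.3 and 31.6 CPM in co-treated and 19.0, 20.8 and 19.1 CPM in control libraries (0.63 ± 0.07, SE; adjusted p = 8.87e-05, edgeR). FUCA1, a fucosidase, stood at 0.58 ± 0.08 (SE; adjusted p = 0.000287, edgeR).

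The largest falls were in the protease gene CTSC and in LAMTOR4 and LAMTOR1, of the Ragulator complex that anchors the Rag GTPases to the lysosome. LAMTOR4 had 16.0, 20.8 and 20.6 CPM in co-treated libraries and 25.3, 27.3 and 31.0 CPM in control libraries (log2 fold change -0.54 ± 0.10, SE; adjusted p = 0.00247, edgeR). LAMTOR1 had 41.0, 48.8 and 48.1 CPM in co-treated and 53.2, 54.9 and 57.5 CPM in control libraries (-0.26 ± 0.07, SE; adjusted p = 0.0112, edgeR), and it did not pass on the TPM scale (-0.13, limma adjusted p = 0.111). CTSC had 57.6, 56.7 and 57.6 CPM in co-treated and 68.6, 70.9 and 75.2 CPM in control libraries (-0.32 ± 0.05, SE; adjusted p = 0.000603, edgeR). With the length trend removed the values were -0.36 for LAMTOR4 and -0.15 for LAMTOR1, and on the TPM scale CTSC stood at -0.18. The call of LAMTOR4 was lost on the unfiltered TPM scale (-0.42, limma adjusted p = 0.0613).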

How the data were processed

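The authors deposited a gene table and a transcript table with values headed as read counts, FPKM and TPM for 6 libraries. Trimmomatic 0.38, HISAT2 2.1.0, Bowtie2, SAMtools 1.9, StringTie 2.1.3b and GRCh38 are named, without roles, per the submitters' processing notes. Library kit, strandedness and RNA selection are not stated in the sources used here. The deposited counts are estimated counts: of 273948 low transcript values, 100.0% equalled the authors' FPKM times length of the transcript, scaled by 1 factor per library and rounded up (tolerance 0.06 counts). Each gene held the sum of its transcripts. Deposited FPKM per transcript served only for that check, and 6 gene FPKM columns were not used. Deposited TPM gave levels per length, transcript shares and alternative tests. Columns headed Con were taken as control and those headed Mo as co-treated (initials of melatonin and oTR), which no label spells out.

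The estimated counts were tested with edgeR 4.0.16 in R 4.3.3 (filterByExpr, minimum count 10, relative log expression factors, as per the labels) over all genes. CPM use the same factors. The SE is the log2 fold change divided by the square root of the F statistic. Transcript usage was tested with limma 3.58.1 (voom, diffSplice), with DESeq2 1.42.0 as an alternative for genes. The gene test, the usage test and the removal of the length trend were tested on simulated data. Exon overlaps came from GENCODE, promoters from RefSeq, and the exon overlaps of other members are not all described. Whether replicate numbers pair the samples is not settled. Correlations of same-numbered deviations were -0.0357 to 0.0691, and those of different numbers were -0.0524 to 0.0587. Within groups, libraries varied beyond sampling noise (chi-square over its degrees of freedom 11.6 to 19.0). Members and lists were chosen with earlier results of these data known. Full values are given for called members with an absolute log2 fold change of at least 0.25 and for ULK1, MAP1LC3B, TFEB, TFE3, MITF, LAMP1, LAMP2 and CTSD, and of the further pathway genes for the 3 largest called rises and falls at 5 CPM or more. CTSB, GAA, RRAGD, ATG12, PSAP, NBR1, CALCOCO2, CTSA and UVRAG, and the transcripts of TFE3, were added after their values were seen. Alternatives, listed in the closing section, were other factors, tools, filters and scales, a replicate block, length-trend removal and leaving out each library.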

Additional observations from a re-analysis of the deposited data

How the results depend on the processing

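Of the 18 called members, 13 kept their call under every alternative run for them: ULK1, ATG2B, ATG3, ATG4A, MAP1LC3B, MAP1LC3B2, GABARAPL1, OPTN, PINK1, RRAGC, NEU1, NPC2 and LIPA. No called member changed sign. The cause of the differences listed here was not tested. With library size alone, 26 members were higher and 1 lower (16 autophagosome and 10 lysosome genes higher, 0 lysosome genes lower), and 5 further pathway genes were lower. On log2(TPM + 1) and log2(TPM + 0.1) alike, 30 were higher and 1 lower (17 and 13 higher, 0 lysosome genes lower), with 64 further genes higher and 3 lower; without a filter 25 were higher and 1 lower (15 and 10 higher, 0 lysosome genes lower), with 2 further genes lower. With the length trend removed 5 members were lower, 4 of them lysosomal, and with no count filter 1 lysosome gene was lower. Leaving out single libraries gave 12 to 15 members higher and 1 to 3 lower. By class this was 8 to 9 autophagosome genes higher, 4 to 6 lysosome genes higher and 0 to 2 lower, with 35 to 40 further genes higher and 8 to 10 lower and 0 to 1 members called for usage. Whether same-numbered replicates were paired is not settled, and with the replicate block 20 members were higher and 4 lower, with 0 called for usage.

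Members that were not called changed sign as follows. With library size alone the values were 0.01 for ATG13, 0.02 for BECN1, ATG16L1 and GABARAP, 0.00 for ATG14, 0.05 for GABARAPL2 and 0.04 for CTSL. On the 3 TPM scales they were 0.04 for ATG9A, 0.08 for BECN1, 0.07 for ATG14, 0.00 for ATG7, 0.09 for ATG16L1 and GABARAP, 0.12 for GABARAPL2, 0.02 for MITF, 0.11 for CTSL and 0.03 for CTSZ. With the length trend removed they were 0.01 for BECN1, -0.02 for PIK3C3, 0.05 for GABARAP and CTSL, 0.12 for GABARAPL2 and -0.04 for HEXA. Leaving out single libraries gave -0.10 to 0.00 for GABARAP, -0.05 to 0.05 for GABARAPL2, -0.06 to 0.10 for TFEB, -0.05 to 0.12 for MCOLN1 and -0.01 to 0.05 for HEXA. MAP1LC3B2 and TFEB had the lowest CPM of the members tested, which limits their precision.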
